A study of Mus musculus with 16 samples.

Results

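The miR-130 and miR-301 family was followed here as 4 mature microRNAs, mmu-miR-130a-3p, mmu-miR-130b-3p, mmu-miR-130b-5p and mmu-miR-301a-3p, found by their exact names among the 1915 entries of a mouse mature microRNA count table. The species prefix is left out from here on. Extracellular vesicles (EVs) were taken from the bone marrow plasma of 16 C57BL/6N mice aged 6 months, and the table holds 16 small RNA libraries, as many as mice, each made from 1 ng of total RNA. All mice carried the CAGS-Snorkel reporter, and EVs were captured through its HA tag on antibody-coated magnetic beads. In 6 mice (3 male, 3 female) the reporter was combined with Ocn-Cre, which is driven by the osteocalcin promoter and acts in mature osteoblasts and osteocytes. In the other 10 (5 male, 5 female) it was combined with Prx1-Cre, which acts in the early limb mesenchyme and so marks its many descendants in limb bones. These groups are called Ocn and Prx1. Sex is not given per library, and libraries from mice without Cre, which would show how much of each microRNA the beads carry along, were not analysed here.

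MicroRNAs are cut from a hairpin precursor whose 5p and 3p arms can each be loaded into an Argonaute protein. The loaded strand finds messenger RNAs mainly through its seed, bases 2 to 8 from the 5′ end. The 3p strands of miR-130a, miR-130b and miR-301a have the same seed and are usually the loaded ones. They are known for repression of PPARG in adipocyte precursors and of components of TGF-β and BMP signalling, and miR-130a for its part in endothelial cells and in blood progenitors. The 5p strand of miR-130b carries another seed and is commonly regarded as the passenger strand.

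The sequences of the 3p members are shown first because they define the family and show how far the entries can be told apart in sequencing (RefSeq, GRCm38.p6; the seed is in capitals).
miR-130a-3p: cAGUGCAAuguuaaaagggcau
miR-130b-3p: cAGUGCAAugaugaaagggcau
miR-301a-3p: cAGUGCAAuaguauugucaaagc
The first 9 bases were the same in all 3. Counted from the 5′ end, miR-130a-3p and miR-130b-3p differed at only 2 of 22 positions, U11A and A13G, so a read with an error or an edit there could be assigned to the other entry. How such reads were counted is not given in the sources used here, and the split between these 2 entries is uncertain to that extent. miR-301a-3p differed from miR-130a-3p at 10 of the 22 positions compared and is 23 bases long.

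The 5p strand of miR-130b holds, at positions 13 to 19, the exact reverse complement of the family seed, shown in capitals, because that stretch lies opposite the seed in the hairpin.
miR-130b-5p: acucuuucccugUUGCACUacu
The whole Mir130b hairpin is shown with both mature strands in capitals, since the ratio of these strands is one of the measurements below.
Mir130b hairpin: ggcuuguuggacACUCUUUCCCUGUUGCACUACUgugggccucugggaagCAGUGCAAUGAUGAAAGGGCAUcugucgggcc
The 5p strand takes up bases 13 to 34 and the 3p strand bases 51 to 72 of the 82. The 7 letters UUGCACU were found in 9 of 1679 mature mouse sequences of the reference, among them miR-301a-5p and miR-301b-5p but also miR-25-3p and miR-92a-3p, so they are not a mark of this family.

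The hairpins lie at 3 places in the genome (mm10, GENCODE annotation). Mir130b is at chr16:17124061-17124142 on the minus strand, in an intron of the protein-coding gene 2610318N02Rik. The Mir301b hairpin lies 257 bases away at chr16:17124400-17124496, also within an intron of that gene. Mir301, the source of miR-301a, is at chr11:87113004-87113089 on the plus strand in an intron of Ska2, a gene of the spindle and kinetochore. Mir130a is at chr2:84741115-84741178 on the minus strand, between annotated genes, 990 bases from Gm19426.

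All 4 members were counted in each of the 16 libraries, and all 4 passed the filter on low counts along with 230 other entries. Library totals ran from 582660 to 1536421 counts in Ocn and from 225273 to 813770 in Prx1, so depth differed with the group (difference in log10 total of 0.36, exact permutation test, 2-sided, p = 0.00112). Levels are given as CPM, the count scaled to a library total of 1000000. By mean CPM over all libraries miR-130a-3p ranked 136th, miR-301a-3p 155th, miR-130b-3p 172nd and miR-130b-5p 193rd of 1915 entries, of which 942 were at 0 in every library. The counts of the 4 members were small, with 1169 over all libraries for miR-130a-3p, 730 for miR-301a-3p, 570 for miR-130b-3p and 331 for miR-130b-5p. The shallowest library, Prx1 4, held 16, 15, 7 and 12 counts of them, in that order.

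**Figure D1:**
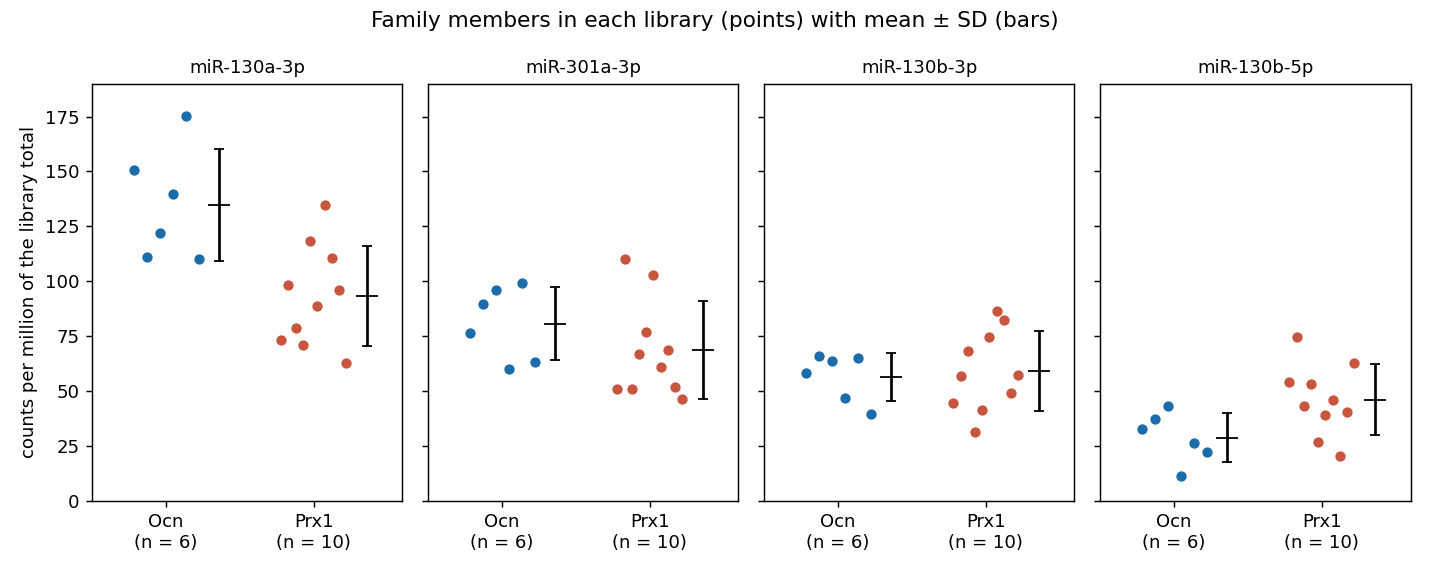
Level of each member in each library, in CPM (vertical axis from 0), for 6 Ocn and 10 Prx1 libraries; points are libraries and bars the mean ± SD beside them. All 6 Ocn points of miR-130a-3p lie above the Prx1 mean of 93.2 CPM, all 6 of miR-130b-5p lie below its Prx1 mean of 46.0 CPM, and the groups overlap in every panel.

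miR-130a-3p led in most libraries, and the order of the other members varied, above all in Prx1. It was higher than miR-130b-3p in 16 of 16 libraries and higher than miR-301a-3p in 14 of 16, the exceptions being 2 Prx1 libraries. miR-301a-3p and miR-130b-3p were not ordered as firmly: miR-301a-3p was higher in 6 of 6 Ocn libraries but in only 6 of 10 Prx1 libraries, and in Prx1 their log2 ratio (miR-130b-3p over miR-301a-3p) of -0.21 was smaller than its SD of 0.59. miR-130b-3p exceeded miR-130b-5p in 6 of 6 Ocn and 6 of 10 Prx1 libraries, and miR-301a-3p exceeded miR-130b-5p in 6 of 6 and 8 of 10. Mature microRNAs are nearly equal in length, so no length correction was made, but adaptor ligation favours some sequences, and differences between entries are read with that limit.

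The comparison of Ocn with Prx1 asked whether the family differed between vesicles marked by the osteoblast driver and those marked by the limb mesenchyme driver. Each library pools all captured vesicles, so fewer vesicles of a kind and less of a microRNA per vesicle cannot be told apart. None of the 4 members passed the threshold of an adjusted p of 0.05 in edgeR's quasi-likelihood test over the 234 entries tested, where 32 entries passed (13.7%). The unadjusted p was under 0.05 for 2 of the 4, miR-130a-3p and miR-130b-5p, against 62 of the 234 (26.5%). All 4 overlapped between the groups in CPM, as did all but 9 of the 234 entries (3.85%). The log2 fold changes of miR-130a-3p and miR-130b-5p had opposite signs, and those of miR-301a-3p and miR-130b-3p were close to or under their standard errors in size. The median log2 fold change was 0.21 for the 3 members that have the seed, which is simply the value of miR-301a-3p. It was 0.04 for all 4 members, beside 0.01 for all entries tested.

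miR-130a-3p, the most abundant member, had 110 CPM in Ocn 6, 111 in Ocn 2, 122 in Ocn 3, 140 in Ocn 4, 151 in Ocn 1 and 175 in Ocn 5. In Prx1 it ran from 62.9 CPM in Prx1 10 to 135 in Prx1 7, with a median of 92.3. All 6 Ocn libraries lay above the Prx1 mean and 7 of 10 Prx1 libraries lay below the lowest Ocn library, while Prx1 5, Prx1 7 and Prx1 8 lay within the Ocn range. The means were 135 ± 25 CPM over the 6 Ocn libraries (SD) and 93.2 ± 23.0 over the 10 Prx1 libraries (SD). The log2 fold change was 0.48 (SE 0.17), or 1.40-fold, with an unadjusted edgeR p of 0.00899, the 37th smallest of 234, and an adjusted p of 0.0569.

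That value lay close to the threshold, and the choice of processing decided the call. With library totals in place of TMM factors the log2 fold change was 0.52 (edgeR adjusted p = 0.0426, 12.8% of entries called), and with upper quartile factors it was 0.62 (edgeR adjusted p = 0.0194, 15.8% called). DESeq2 gave 0.48 (adjusted p = 0.0316, 17.9% called) and limma voom with quality weights 0.52 (adjusted p = 0.0175, 20.5% called). A single thinning of all libraries to the depth of the shallowest gave 0.68 (edgeR adjusted p = 0.0150, 13.5% of 192 entries called), which lies outside the range of 0.31 to 0.62 over 20 repeated thinnings, of which 3 passed. Without Ocn 2, Ocn 3, Ocn 6, Prx1 7 or Prx1 8 it ran from 0.56 to 0.59 and passed (edgeR adjusted p from 0.0236 to 0.0417). Those Ocn libraries were the lowest of their group, and those Prx1 libraries lay within the Ocn range. Leaving any of them out widens the difference by construction, so these passes are no added support. With depth (log10 total) as a covariate it was 0.25 (SE 0.26, edgeR adjusted p = 0.638). The sign was positive in all 27 alternatives run.

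miR-301a-3p, encoded within Ska2, had 59.9 CPM in Ocn 4, 63.2 in Ocn 6, 76.2 in Ocn 1, 89.8 in Ocn 2, 96.1 in Ocn 3 and 98.9 in Ocn 5. In Prx1 it ran from 46.5 CPM in Prx1 10 to 110 in Prx1 2, with a median of 63.8. The 2 highest libraries of all, Prx1 2 and Prx1 6, were Prx1 libraries, and so were the 4 lowest, so the Ocn values fell inside the Prx1 range. The means were 80.7 ± 16.8 CPM over the 6 Ocn libraries (SD) and 68.6 ± 22.3 over the 10 Prx1 libraries (SD). The log2 fold change of 0.21 (SE 0.19, edgeR adjusted p = 0.533) was about the size of its error, and the range of 2 SE on either side, from -0.17 to 0.59, includes the value of miR-130a-3p. Over 27 alternatives it ran from 0.08 to 0.35, the highest being with depth (log10 total) as a covariate (SE 0.30, edgeR adjusted p = 0.590).

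miR-130b-3p had 39.7 CPM in Ocn 6, 46.6 in Ocn 4, 58.4 in Ocn 1, 63.5 in Ocn 3, 65.1 in Ocn 5 and 66.0 in Ocn 2. In Prx1 it ran from 31.1 CPM in Prx1 4 to 86.4 in Prx1 7, with a median of 57.0. The Prx1 libraries thus spread to both sides of all Ocn libraries, with 4 above and 1 below. The means were 56.5 ± 10.9 CPM over the 6 Ocn libraries (SD) and 59.2 ± 18.3 over the 10 Prx1 libraries (SD). The log2 fold change was -0.12 (SE 0.20, edgeR adjusted p = 0.737), and 2 SE on either side ran from -0.52 to 0.27. Its sign was not settled, being 0.0084 with upper quartile factors and 0.026 without Prx1 8, while the covariate for depth gave -0.34 (SE 0.30, edgeR adjusted p = 0.614).

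Added together, the 3 members with the seed came to 213 to 339 CPM in Ocn, with a mean of 272 ± 42 (SD, n = 6), and to 167 to 282 CPM in Prx1, with a mean of 221 ± 46 (SD, n = 10). The summed level was above the Prx1 mean in 5 of 6 Ocn libraries, and 5 of 10 Prx1 libraries lay within the Ocn range. The make-up of the sum is not a separate result, since a larger share of a member lowers the shares of the others. miR-130a-3p supplied 49.6% ± 5.9 (SD) of the sum in Ocn and 42.2% ± 5.4 in Prx1, miR-130b-3p 20.8% ± 2.4 and 26.8% ± 6.2, and miR-301a-3p 29.6% ± 3.8 and 31.0% ± 6.8. All 6 Ocn libraries had a smaller share of miR-130b-3p than the Prx1 mean, and the shares of the groups overlapped for each of the 3. These shares were not tested.

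miR-130b-5p, the strand opposite the seed strand of its hairpin, had 11.4 CPM in Ocn 4, 22.04 in Ocn 6, 26.0 in Ocn 5, 32.4 in Ocn 1, 37.0 in Ocn 2 and 42.9 in Ocn 3. In Prx1 it ran from 20.1 CPM in Prx1 8 to 74.4 in Prx1 2, with a median of 44.4. All 6 Ocn libraries lay below the Prx1 mean and 6 of 10 Prx1 libraries lay above the highest Ocn library, but the lowest Prx1 libraries, Prx1 8 and Prx1 5, stood among the Ocn values. The means were 28.6 ± 11.3 CPM over the 6 Ocn libraries (SD) and 46.0 ± 16.1 over the 10 Prx1 libraries (SD). The log2 fold change was -0.72 (SE 0.27), which is 1.65-fold more in Prx1, with an unadjusted edgeR p of 0.0125 and an adjusted p of 0.0726. It was the 17th largest in size of 234 but only the 40th by p. Of 27 alternatives, 27 gave a negative value and 1 passed, the fit without Prx1 8 (-0.75, edgeR adjusted p = 0.0426). Prx1 8 was the lowest Prx1 library, so leaving it out widens the difference by construction. The 2 thinnings among the 27 do not bear on the sign, because miR-130b-5p passes their filter through its Prx1 counts. The fit with depth (log10 total) as a covariate gave -0.27 (SE 0.38, edgeR adjusted p = 0.732).

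The spread between libraries was set beside the spread that counting alone would give, with no test. The SD of miR-130b-5p in Prx1 was 16.1 CPM where counting error at these depths gives 11.5 CPM, a ratio of 1.40. The ratio was highest for miR-130a-3p in Ocn, at 2.01, and lowest for miR-130b-3p in Ocn, at 1.33.

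The arms of miR-130b were next set against each other within each library, a ratio that needs no scaling between libraries. In Ocn the 5p arm made up 19.7% of the miR-130b counts in Ocn 4, 28.6% in Ocn 5, 35.7% in Ocn 1 and in Ocn 6, 35.9% in Ocn 2 and 40.3% in Ocn 3. In Prx1 it ran from 19.7% in Prx1 8 to 63.2% in Prx1 4, with a median of 42.2%. The 3p arm was therefore the larger in 6 of 6 Ocn libraries, while 4 of 10 Prx1 libraries, Prx1 1, Prx1 2, Prx1 4 and Prx1 10, held more of the 5p arm. These shares rest on 42 to 140 counts in Ocn and 19 to 73 in Prx1. Their 95% Wilson intervals are wide, from 41.0% to 80.9% in Prx1 4 with 19 counts, and from 21.7% to 36.5% in Ocn 5 with 140 counts. The interval lay wholly under 50% in Ocn 1, Ocn 2, Ocn 4 and Ocn 5 and in Prx1 7 and Prx1 8, and wholly above it in 0 of 16 libraries.

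**Figure D2:**
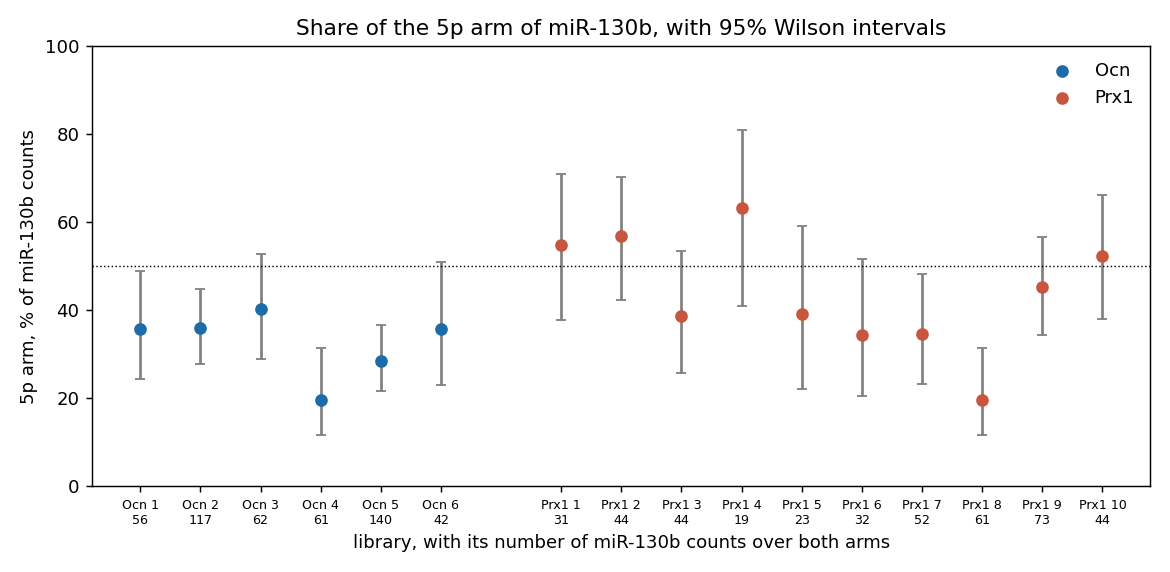
Share of the 5p arm among all miR-130b counts of each library, in percent, with 95% Wilson intervals that cover counting error only; the number under each library is its count over both arms and the dotted line marks 50%. The 6 Ocn libraries sit between 19.7% and 40.3%, inside the wider Prx1 range of 19.7% to 63.2%.

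The mean share of the 5p arm was 32.6% ± 7.4 over the 6 Ocn libraries (SD) and 43.9% ± 13.1 over the 10 Prx1 libraries (SD), and all 6 Ocn libraries lay below the Prx1 mean. On the log2 scale, with 0.5 added to each count, the 5p to 3p ratio was -1.06 ± 0.52 in Ocn and -0.38 ± 0.80 in Prx1. The difference of -0.68 (SE 0.34, 95% interval from -1.38 to 0.03) did not pass over the 44 hairpins with both arms tested (limma p = 0.0589, adjusted p = 0.251), of which 3 passed (6.82%) and 8 had an unadjusted p under 0.05 (18.2%). An exact permutation test of miR-130b alone over all 8008 assignments of the libraries, 2-sided, gave p = 0.0888. In size the difference ranked 9th of 44, where the median size was 0.34, but its standard error was also above the median of 0.26. With depth (log10 total) as a covariate the difference was 0.12 (SE 0.47, limma adjusted p = 0.945), of the opposite sign.

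Both arms of miR-130b were near each other in level, a trait that other hairpins shared. In Ocn 7 of the 44 hairpins had a mean log2 arm ratio closer to 0, miR-574, miR-139 and miR-423 among them (named after their values were seen), and in Prx1 1 had, while the median size over hairpins was 3.69 in Ocn and 3.74 in Prx1. The other hairpins of the family gave few 5p counts. The 5p arm made up 1.78% ± 1.77 of the miR-130a counts in Ocn and 1.98% ± 1.85 in Prx1, from 24 counts of miR-130a-5p in all against 1169 of the 3p arm. It made up 10.4% ± 5.3 of the miR-301a counts in Ocn and 9.30% ± 8.16 in Prx1, from 77 counts against 730 (SD, n = 6 and 10). Neither 5p arm passed the filter on low counts, so neither entered a test. The neighbour of Mir130b in the same host gene, Mir301b, gave 99 counts of miR-301b-3p and 7 of miR-301b-5p over all libraries. miR-301b-3p had 9.13 ± 4.92 CPM in Ocn and 11.4 ± 5.1 in Prx1, well under miR-130b-3p, although these hairpins lie side by side. Both Mir301b entries were named after their values were seen.

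Depth moved with the results that stood apart most. Over all 16 libraries the log10 total correlated with log2 CPM of miR-130a-3p (Pearson r = 0.68, permutation p = 0.00407; Spearman rho = 0.64, permutation p = 0.00996) and, negatively, with that of miR-130b-5p (r = -0.60, permutation p = 0.0133; rho = -0.65, permutation p = 0.00757). It also correlated with the log2 arm ratio of miR-130b (r = -0.63, permutation p = 0.00864; rho = -0.56, permutation p = 0.0281). For miR-130b-3p (r = 0.20, permutation p = 0.468; rho = 0.17, permutation p = 0.520) and miR-301a-3p (r = 0.15, permutation p = 0.584; rho = 0.00, permutation p = 0.995) it did not. Of the 5 relations, the same 3 passed after Benjamini-Hochberg adjustment, with adjusted permutation p for r of 0.0203, 0.0221 and 0.0216 and for rho of 0.0249, 0.0249 and 0.0469. Without the 2 libraries farthest from the median depth, r was 0.61, -0.69 and -0.66.

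Within the groups these relations had the same sign but did not pass. In Ocn r was 0.43 for miR-130a-3p, -0.32 for miR-130b-5p and -0.59 for the arm ratio (exact permutation p = 0.378, 0.574 and 0.225, n = 6). In Prx1 it was 0.35, -0.42 and -0.49 (permutation p = 0.320, 0.227 and 0.147, n = 10). Since the Ocn libraries were the deeper ones, depth and group cannot be told apart fully in these data. Every library was also thinned at random to 225273 counts, the total of the shallowest, repeated 20 times as an alternative chosen after seeing the data. Random thinning keeps the expected CPM and, nearly, the expected arm ratio of each library, so it cannot separate depth from group. It shows only how far smaller counts blur the values. The median difference over the draws was 0.46 for miR-130a-3p and -0.69 for the arm ratio. miR-130a-3p passed in 3 of 20 such draws and the arm ratio in 1 of 20. For miR-130b-5p no value is given: the filter asks for about 10 counts, which out of 225273 is more than any Ocn library's level, so the entry was tested only in 12 draws and with its high Prx1 counts deciding that. The arm ratio ran from -1.13 to 0.09 over the draws, which shows how little these counts fix it at the lowest depth.

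**Figure D3:**
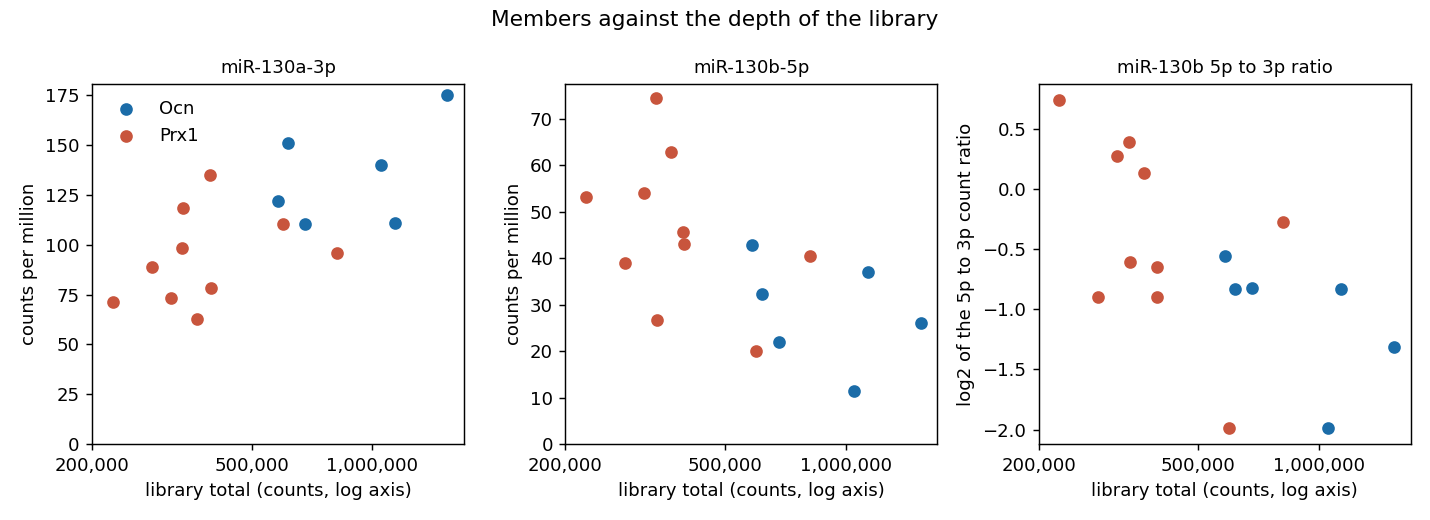
Level of miR-130a-3p and of miR-130b-5p, in CPM, and the log2 5p to 3p ratio of miR-130b against the library total (counts, log axis); each point is 1 library. Over all 16 libraries r is 0.68, -0.60 and -0.63, and all 6 Ocn libraries are deeper than 8 of the 10 Prx1 libraries.

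The members were also compared with each other across libraries, in 6 pairs. Levels of miR-130a-3p and miR-130b-5p were opposed (r = -0.61, permutation p = 0.0124, adjusted p = 0.0744; rho = -0.62, permutation p = 0.0120, adjusted p = 0.0721), which missed the threshold after adjustment. Within Ocn r was -0.21 and within Prx1 -0.53 (permutation p = 0.707, exact, n = 6, and 0.116, n = 10), and without the 2 libraries farthest from the median of miR-130a-3p it was -0.54. The other 5 pairs had adjusted permutation p for r from 0.209 to 0.990. Among them, the arms of miR-130b had an r of 0.03 (permutation p = 0.910; rho = -0.05, permutation p = 0.864), with 0.68 within Ocn (exact permutation p = 0.125, n = 6) and -0.27 within Prx1 (permutation p = 0.460, n = 10). For miR-130b-3p with miR-301a-3p, r was 0.24 over all libraries (permutation p = 0.360; rho = 0.19, permutation p = 0.476). Within Ocn it was 0.91 (exact permutation p = 0.0153, adjusted over 6 pairs 0.0917; rho = 0.77, exact permutation p = 0.103), and within Prx1 0.11 (permutation p = 0.769, n = 10). The near-identical miR-130a-3p and miR-130b-3p had an r of 0.28 (permutation p = 0.284; rho = 0.25, permutation p = 0.343).

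**Figure D4:**
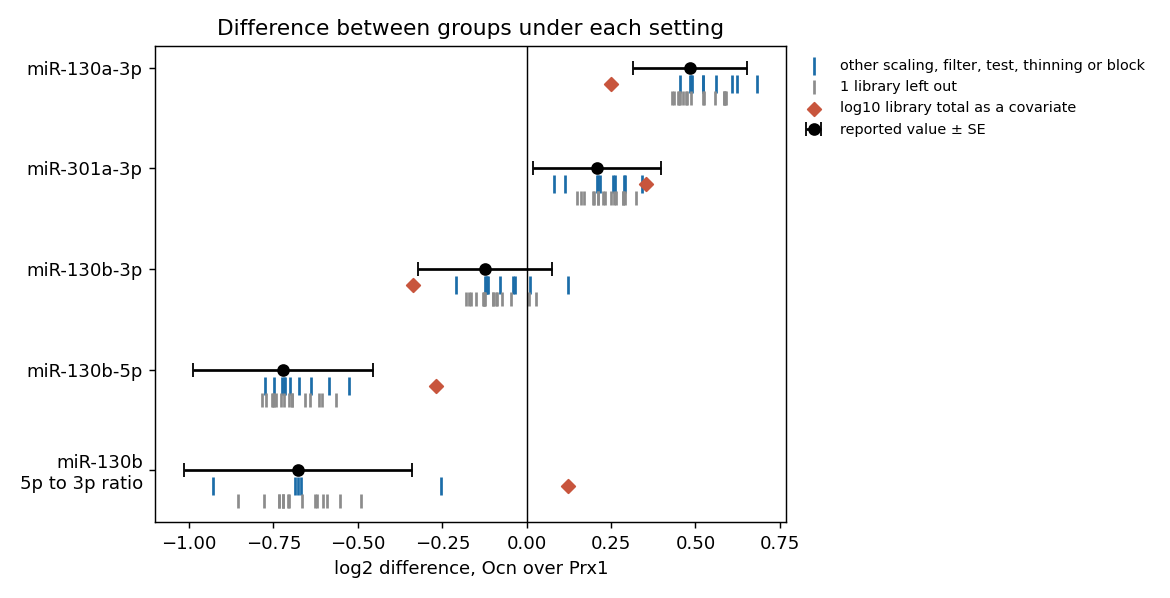
Log2 difference, Ocn over Prx1, of each member and of the miR-130b 5p to 3p ratio; black points are the reported values with their standard errors, blue marks other scalings, filters, tests, thinnings or the replicate block, grey marks fits with 1 library left out, and red diamonds the fit with depth (log10 total) as a covariate. Among the blue marks of miR-130b-5p, the thinnings do not bear on its sign, because the entry passes their filter through its Prx1 counts. The diamonds lie nearer to 0 for miR-130a-3p (0.25) and miR-130b-5p (-0.27), farther from 0 for miR-130b-3p (-0.34) and miR-301a-3p (0.35), and on the other side of 0 for the arm ratio (0.12).

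Of the 1623 entries with a matched RefSeq sequence, 7 held the seed. Beyond the 3 members these were miR-130c, miR-721, miR-6341 and miR-6389, and each had 0 counts in all 16 libraries. Entries with no matched sequence, miR-301b-3p among them, were not searched for the seed and are not in that count. A count of 0 allows up to 3 counts per library, which is 1.95 CPM in the deepest and 13.3 CPM in the shallowest.

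microRNAs whose 5′ ends share a run with the family at another offset were set beside it, because a shifted seed recognises overlapping but different sites. The shared run is in capitals.
miR-19b-3p: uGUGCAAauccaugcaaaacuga
miR-148a-3p: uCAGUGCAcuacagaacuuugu
Of the 5 such entries, all tested, 1 was higher in Ocn and 0 were lower, beside 5.98% higher and 7.69% lower of all entries tested, with a median log2 fold change of 0.32. miR-19b-3p, a member of the Mir17 cluster that promotes proliferation, had 658 ± 197 CPM over the 6 Ocn libraries (SD) and 406 ± 114 over the 10 Prx1 libraries (SD), a log2 fold change of 0.65 (SE 0.18, edgeR adjusted p = 0.0180). With depth (log10 total) as a covariate it was not called, nor was any other entry. miR-19a-3p had 0.57 (SE 0.26), miR-152-3p 0.32 (SE 0.13), miR-148a-3p 0.20 (SE 0.21) and miR-148b-3p 0.04 (SE 0.16), none past the threshold (edgeR adjusted p from 0.116 to 0.879). miR-148a-3p, at 14561 ± 7843 CPM in Ocn and 12196 ± 2762 in Prx1, was far more abundant than the whole family.

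Among 8 microRNAs reported to act on adipocyte differentiation or on Pparg, as miR-130 does, 6 were tested, of which 2 were higher in Ocn and 0 lower, beside the 5.98% and 7.69% of all entries. These were miR-27a-3p (log2 fold change 0.66, SE 0.14, edgeR adjusted p = 0.00299) and miR-27b-3p (0.36, SE 0.11, edgeR adjusted p = 0.0220), both known to target Pparg. Neither was called with depth (log10 total) as a covariate, where no entry was. The 4 that did not pass were miR-143-3p (0.29), miR-20a-5p (0.20), miR-103-3p (-0.04) and miR-107-3p (-0.25). The median of the 6 was 0.24.

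By Spearman correlation of log2(CPM + 1) over the 16 libraries, among 230 tested entries outside the family, the pattern of miR-130a-3p was most like those of miR-1306-3p (rho = 0.84) and miR-18a-5p (rho = 0.78). That of miR-130b-3p was most like miR-484 (0.70) and miR-181d-5p (0.67), and that of miR-301a-3p most like miR-455-5p (0.58) and miR-15b-3p (0.58). miR-130b-5p was most like miR-486a-5p and miR-486b-5p, both at 0.77, microRNAs abundant in red blood cells whose entries had nearly equal counts here. Within the groups the rho of miR-130b-5p with miR-486a-5p was 0.77 in Ocn and 0.59 in Prx1. That of miR-130a-3p with miR-1306-3p was 0.71 and 0.70. The rho values over all libraries are the highest of 230 each, over libraries that share the difference in group and depth, and are given without a test. In log2 fold change miR-486a-5p (-0.38) had the sign of miR-130b-5p (-0.72). The other red blood cell markers, miR-144-3p (0.58) and miR-451a (0.22), had the opposite sign.

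None of 17 cell type markers, mesenchymal ones included, was at 0 in every library. Their levels differed widely, with means in Ocn from 11.3 CPM for miR-122-5p to 48287 CPM for miR-1a-3p. The summed level of all 17, to which the mesenchymal markers also contribute, ran from 160585 to 234559 CPM in Ocn. In Prx1 it ran from 153392 to 175531 CPM. Of 16 tested, 1 was higher in Ocn (miR-199a-5p, a mesenchymal microRNA, 0.43) and 3 were lower, beside 5.98% and 7.69% of all entries tested. The lower ones were miR-150-5p of lymphocytes (-1.05), miR-133a-3p of muscle (-0.68) and miR-486a-5p of red blood cells (-0.38). None of these markers was called with depth (log10 total) as a covariate. The markers of mesenchyme, of muscle and of red blood cells each held both signs. The mesenchymal miR-214-3p had -0.29 (SE 0.15), and the muscle miR-1a-3p 0.34 (SE 0.17, edgeR adjusted p = 0.187), at 48287 ± 9033 CPM in Ocn and 37029 ± 10218 in Prx1 (SD). The other red blood cell markers were positive, with 0.58 (SE 0.20, edgeR adjusted p = 0.0569) for miR-144-3p and 0.22 (SE 0.18) for miR-451a. The untested marker, miR-122-5p of the liver, ran up to 23.5 CPM in Ocn and from 0 to 1644 CPM in Prx1. Its SD in Prx1, 517 CPM, was larger than its mean of 171 CPM, and most of that mean came from the library at 1644 CPM. Of the endothelial pair, miR-126a-3p had 0.14 (SE 0.11) and miR-126a-5p 0.12 (SE 0.14). The part of these cells in the values of the family was not tested.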

How the data were processed

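The deposited table holds raw counts, 1 row per mature microRNA and 1 column per library, with no normalization, as its whole numbers and unequal column totals show. The tools listed per the submitters' processing notes are cutadapt 1.18, with mm10 as the build. Neither an aligner nor a counter is named, and whether unique molecular identifiers were counted is not given in the sources used here, so intervals and limits from a count of 0 cover counting error only. Library preparation used a QIAseq kit on 1 ng RNA per library, per the labels' protocols.

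Groups follow the titles. Whether libraries come from separate mice is given only by the number of mice in the design text, which equals the number of libraries. If some share a mouse, p-values measure in part a technical spread. edgeR 4.0.16 in R 4.3.3 was fitted to the whole table (filterByExpr, TMM factors, robust quasi-likelihood F test, no covariates), with p-values adjusted by Benjamini-Hochberg over 234 entries, which held at least 99.7% of each library. The standard error is the log2 fold change divided by the square root of F. Arm ratios used limma 3.58.1 over 44 hairpins. DESeq2 1.42.0 was an alternative. Permutation tests used all 8008 splits, all orders of 6 libraries, or 100000 shuffles (scipy 1.17.1). Both fits were run on simulated data with no effect tied to depth. The arm ratio was simulated only at a change larger than that seen for miR-130b, so these runs do not bear on that result. Of the 1915 entries, 1623 matched a mature RefSeq sequence by name.

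The members, lists and tests were chosen with earlier results of these data known. Named entries are the members, those with the same seed or hairpin, those past the threshold in 2 lists (shifted seed, adipocyte differentiation) and the 2 entries most like each member, with values of other list members and of cell markers added after they were seen.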

Additional observations from a re-analysis of the deposited data

How the results depend on the processing

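The adjusted p of miR-130a-3p ran from 0.0150 to 0.638 over 27 alternatives, of which 10 passed. They were DESeq2 (log2 fold change 0.48), library totals (0.52), upper quartile factors (0.62), a single thinning to the shallowest library (0.68, above the highest of 20 repeats, 0.62), limma voom with quality weights (0.52) and 5 fits with a library left out, where the value ran from 0.43 to 0.59 over all 16 fits. Those 5 fits left out a low Ocn or a high Prx1 library, which widens the difference by construction. The value of miR-130b-3p turned positive with upper quartile factors (0.0084) and with the replicate block (0.12), and ran from -0.18 to 0.026 with 1 library left out, being 0.0075 without Ocn 6 and 0.026 without Prx1 8. miR-130b-5p ran from -0.79 to -0.56 with 1 library left out and passed only without Prx1 8, its lowest Prx1 library. miR-301a-3p ran from 0.15 to 0.32. The arm ratio ran from -0.86 to -0.49 with 1 library left out, was -0.25 after the single thinning, and turned to 0.12 with depth (log10 total) as a covariate, under which 0 entries were called by edgeR in place of 32 and 40 had an unadjusted p under 0.05. The cause was not tested. The number of entries called ran from 24 to 36 with 1 library left out. Higher calls came to 8 or 9 without Prx1 1, 2 or 3. In place of 14 higher and 18 lower calls, upper quartile factors gave 26 and 11, with the median log2 fold change over all entries at 0.13 under them, and limma voom gave 24 and 24.

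With the replicate number as a block over the 6 numbers both groups have, the values were 0.61 for miR-130a-3p, -0.75 for miR-130b-5p, 0.11 for miR-301a-3p and -0.93 for the arm ratio, with 27 entries called, and no call of a member changed. The numbers are not stated to mark a litter or day. The deviations of same-numbered libraries had correlations from 0.02 to 0.20, over 0.1 in 3 of 6 pairs. Of the 6 Ocn libraries, 0 correlated best with the Prx1 library of their own number. A filter of at least 50 counts over both arms in every library left 31 hairpins without miR-130b, so it gives no value. The 9 to 42 counts of miR-130b-5p per library limit both its test and the arm ratio.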
